A study of Homo sapiens and Mus musculus with 12 samples.

Results

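The 10 genes described here are ATOH8 and 9 genes of the bone morphogenetic protein (BMP) pathway, namely ID1, ID2, ID3, ID4, SMAD6, SMAD7, SMAD9, BAMBI and BMP4, together with the mouse genes of the same symbols. They are 10 of the 63677 genes counted in the human libraries and 10 of the 47729 counted in the mouse libraries. ATOH8 was chosen by the size of its rise with ponatinib, so its values in both lines are a description and carry no test. The other 9 were listed as direct outputs of BMP signaling, to ask whether they move with ATOH8.

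RNA-seq was performed on MDA-MB-231 cells, which are human and come from a triple-negative breast cancer, and on 4T1 cells, which are murine and come from a mammary carcinoma. Both are wild type by their labels. Each line was exposed for 24 h to 1 μM ponatinib, which inhibits several tyrosine kinases, or to its solvent DMSO alone, and each of the 4 groups holds 3 libraries, 12 in all. The labels do not say that libraries of a group came from separate cultures, so the p-values below measure only the spread between these libraries, which may be technical. With 1 dose, 1 time point and 1 line of each species, a difference between the lines cannot be told apart from one between the species.

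BMPs are secreted ligands of the TGF-β family. They bind pairs of type I and type II serine/threonine kinase receptors, which phosphorylate the receptor-regulated SMAD proteins SMAD1, SMAD5 and SMAD9, and these enter the nucleus with SMAD4 and switch on target genes. The ID genes are the textbook targets and encode helix-loop-helix proteins that lack a DNA-binding region and hold other helix-loop-helix factors inactive. SMAD6, SMAD7 and BAMBI are targets that act back on the pathway as inhibitors. In breast cancer cells, ID1 and ID3 are known for roles in self-renewal and metastatic growth.

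The promoters of ATOH8 and ID1 are shown first, because these genes were higher with ponatinib in both species and can be compared base by base. Each sequence is the 250 bases before an annotated transcript start, read 5′ to 3′ on the gene's strand, and the capitals mark the longest run that the human and mouse windows share. The human windows follow the RefSeq starts on GRCh38.p14 and the mouse windows the canonical GENCODE vM39 starts on GRCm39. The ATOH8 window is chr2:85753741-85753990 on the plus strand and the Atoh8 window is chr6:72212603-72212852 on the minus strand. The ID1 window is chr20:31605039-31605288 and the Id1 window is chr2:152577915-152578164, both on the plus strand.
ATOH8, human: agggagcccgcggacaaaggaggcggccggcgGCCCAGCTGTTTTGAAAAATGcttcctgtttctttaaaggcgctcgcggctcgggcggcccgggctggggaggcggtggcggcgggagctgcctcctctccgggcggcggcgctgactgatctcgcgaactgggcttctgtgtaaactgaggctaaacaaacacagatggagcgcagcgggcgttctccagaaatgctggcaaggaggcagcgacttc
Atoh8, mouse: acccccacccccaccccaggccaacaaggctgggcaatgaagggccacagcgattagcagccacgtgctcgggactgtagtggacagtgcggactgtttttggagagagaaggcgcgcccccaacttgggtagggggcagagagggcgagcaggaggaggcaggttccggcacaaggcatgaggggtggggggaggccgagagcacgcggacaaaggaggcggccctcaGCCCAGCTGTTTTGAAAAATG
ID1, human: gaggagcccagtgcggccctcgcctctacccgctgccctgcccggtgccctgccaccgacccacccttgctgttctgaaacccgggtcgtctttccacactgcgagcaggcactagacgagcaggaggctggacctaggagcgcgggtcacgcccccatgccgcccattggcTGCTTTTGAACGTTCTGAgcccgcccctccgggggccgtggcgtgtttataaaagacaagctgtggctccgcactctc
Id1, mouse: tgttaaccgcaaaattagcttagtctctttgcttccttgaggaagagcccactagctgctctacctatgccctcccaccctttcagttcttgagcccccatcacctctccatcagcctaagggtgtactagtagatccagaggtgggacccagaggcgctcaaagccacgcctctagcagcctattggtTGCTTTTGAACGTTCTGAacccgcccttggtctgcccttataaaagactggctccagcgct
The shared run was 21 bases long for ATOH8 and 18 bases long for ID1. In ID1 it began 78 bases before the human start and 61 bases before the mouse start. In ATOH8 it began 218 bases before the human start and 21 bases before the mouse start, so the annotated starts of this gene lie at different places relative to the shared run.

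SMAD6 is shown because its window was the only one among the 14 human windows of the 10 genes with the palindromic SMAD box, GTCTAGAC, which is printed in capitals. The window is chr15:66701986-66702235 on the plus strand of GRCh38.p14.
SMAD6, human: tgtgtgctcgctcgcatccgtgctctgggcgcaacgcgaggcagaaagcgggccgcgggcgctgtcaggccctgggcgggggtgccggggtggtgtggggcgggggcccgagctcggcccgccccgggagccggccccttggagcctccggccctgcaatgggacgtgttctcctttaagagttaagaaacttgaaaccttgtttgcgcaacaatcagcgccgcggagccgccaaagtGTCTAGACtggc
The box began 12 bases before the start. GTCTAGAC was present in 0.182% of 35116 human and 0.239% of 21770 mouse windows of the same length, searched on both strands. Among the 10 mouse windows of these genes, 1 held it, that of Smad7. The GC-rich box GGCGCC was present in 2 of the 14 human windows, with 3 copies in BAMBI and 1 in BMP4, and in 2 of the 10 mouse windows, those of Id4 and Smad9, against 16.4% of all human and 9.31% of all mouse windows. The composite BMP response element (GGCGCC, then NNNNN, then GTCT), which contains GGCGCC, was found in 0 of the 14 human and 0 of the 10 mouse windows, against 0.0769% of human and 0.0551% of mouse windows. These matches are letters in a window and not measured binding sites.

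ATOH8 encodes a basic helix-loop-helix transcription factor of the atonal family (ENSG00000168874, chr2:85751344-85791383, plus strand, hg38). Values in CPM (counts per 1000000 counts of the library, after its total was scaled by edgeR's TMM factor) were 1.72, 2.39 and 1.76 in the 3 MDA-MB-231 DMSO libraries and 87.1, 69.9 and 57.7 in the 3 ponatinib libraries. The groups did not overlap. The means were 1.96 ± 0.377 and 71.6 ± 14.8 CPM (SD, n = 3), a log2 fold change of 5.19 (SE 0.19), or 36.4-fold. This fold change ranked 19th from the top of 14610 genes tested, and 5th of the 9175 that had at least 10 CPM with ponatinib.

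In 4T1, Atoh8 (ENSMUSG00000037621, chr6:72183161-72212602, minus strand, GRCm39) was already well detected without the drug. Its CPM were 8.27, 7.33 and 7.21 with DMSO and 85.6, 84.4 and 91.5 with ponatinib, again without overlap. The level with ponatinib was 11.5-fold higher, a log2 fold change of 3.52 (SE 0.10). It ranked 72nd of 13286 genes tested and 13th of the 9215 with at least 10 CPM under ponatinib. On the CPM scale, the ponatinib level of 87.2 ± 3.78 was close to the highest MDA-MB-231 ponatinib library, whereas the DMSO level of 7.60 ± 0.581 lay above all 3 MDA-MB-231 DMSO libraries. The tables of the lines were scaled separately, so levels are set side by side and not tested. Because these are bulk libraries, more cells that express a gene and more RNA per cell cannot be told apart, here and for every gene below.

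**Figure D1:**
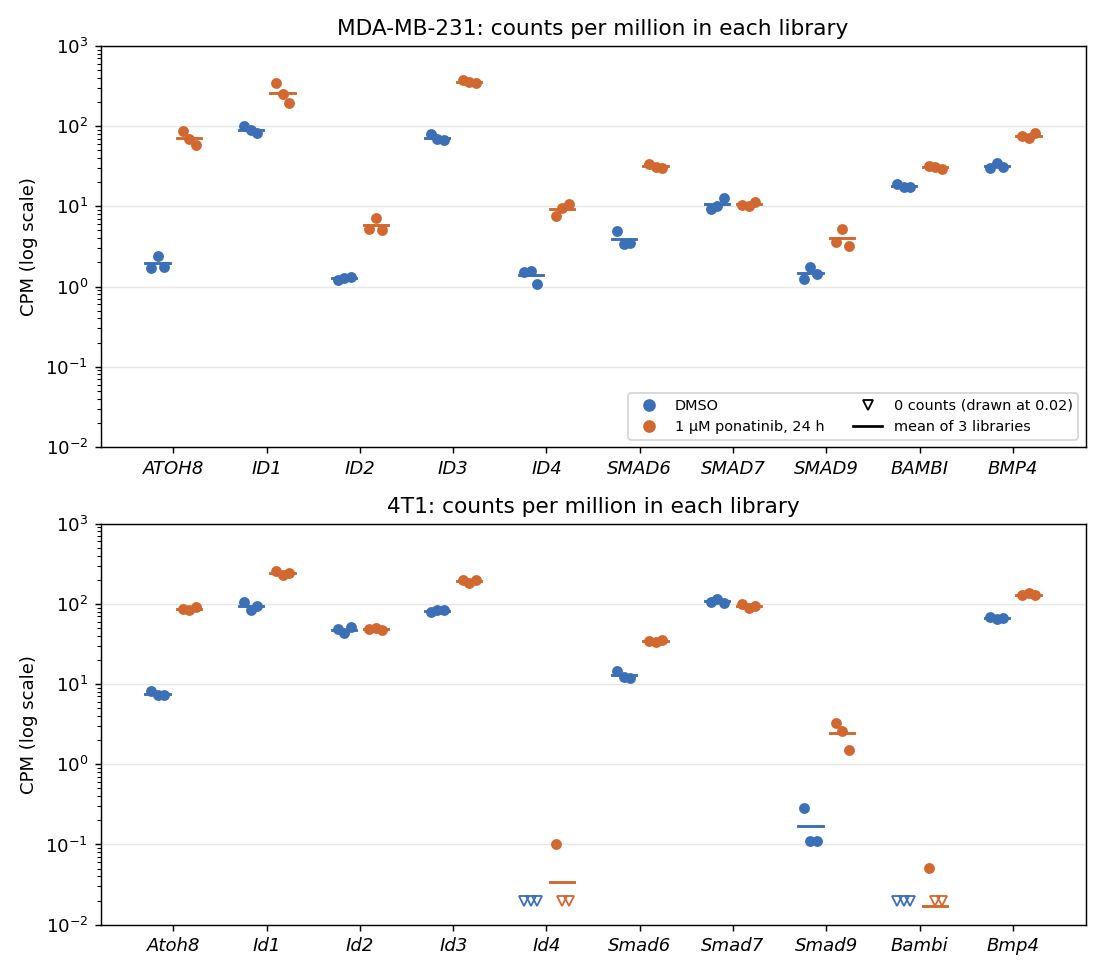
CPM on a log scale for the 10 genes in each library, with MDA-MB-231 above and 4T1 below; points are single libraries (DMSO blue, ponatinib orange), short lines are means of 3, and open triangles are libraries with 0 counts. ATOH8, chosen by its rise, and Smad9, which passed the filter in 4T1 only through its ponatinib libraries, are left out of the 4T1 count. Without ATOH8, the ponatinib points lie above the DMSO points for 8 of 9 genes in MDA-MB-231, against 30.6% of all genes tested. In 4T1 they do so for 4 of the 6 other tested genes, against 32.6%. The points of SMAD7 in MDA-MB-231 and Id2 in 4T1 overlap.

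Among the ID genes, all 4 rose in MDA-MB-231. ID3 (ENSG00000117318, chr1:23557926-23559501) gave 79.9, 69.0 and 66.4 CPM with DMSO and 375, 359.9 and 344 CPM with ponatinib. It had the tightest change of the family, 5.02-fold with a log2 fold change of 2.33 (SE 0.09, adjusted p = 5.38e-09, quasi-likelihood test in edgeR, Benjamini-Hochberg adjustment over all genes tested). ID1 (ENSG00000125968, chr20:31605283-31606515) gave 100.5, 88.5 and 82.1 CPM with DMSO and 342, 249 and 193 CPM with ponatinib. The ponatinib libraries of ID1 spread widely, with replicate 1 highest, but all lay above the DMSO libraries, and the rise was 2.89-fold with a log2 fold change of 1.53 (SE 0.17, adjusted p = 1.53e-05).

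ID4 and ID2 were low in MDA-MB-231 with DMSO. ID4 (ENSG00000172201, chr6:19837370-19842197) had 23, 24 and 17 counts with DMSO, or 1.52, 1.55 and 1.07 CPM, and 7.62, 9.48 and 10.7 CPM with ponatinib. ID2 (ENSG00000115738, chr2:8678845-8684461) had 18, 20 and 21 counts with DMSO, or 1.19, 1.29 and 1.32 CPM, and 5.16, 7.25 and 5.14 CPM with ponatinib. Neither gene's groups overlapped. The log2 fold change was 2.74 for ID4 (SE 0.22, adjusted p = 1.22e-06) and 2.20 for ID2 (SE 0.23, adjusted p = 1.11e-05), or 6.70-fold and 4.58-fold. ID2 shares 6.55% of its exon bases with the antisense gene ID2-AS1, which had at most 3 counts in any library. Strand use in counting was not stated, so reads of the overlap cannot be assigned.

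In 4T1, Id1 and Id3 rose, Id2 did not pass the test and Id4 was at the detection floor. Id1 (ENSMUSG00000042745, chr2:152566218-152579544) gave 106, 84.6 and 94.0 CPM with DMSO and 256, 232 and 243 CPM with ponatinib, a 2.57-fold rise (log2 fold change 1.36, SE 0.09, adjusted p = 1.03e-08). Id3 (ENSMUSG00000007872, chr4:135870808-135873066) gave 78.2, 84.4 and 84.9 CPM with DMSO and 198, 181 and 198 CPM with ponatinib, a 2.33-fold rise (log2 fold change 1.22, SE 0.07, adjusted p = 5.51e-09). For both genes every ponatinib library lay above every DMSO library.

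Id2 (ENSMUSG00000020644, chr12:25143798-25147282) gave 48.3, 43.3 and 51.6 CPM with DMSO and 48.9, 49.9 and 46.9 CPM with ponatinib. The groups overlapped and the log2 fold change was 0.02 (SE 0.09, adjusted p = 0.831), which turned to -0.04 without DMSO replicate 2. In contrast to MDA-MB-231, where ID2 was among the lower members, Id2 was abundant in 4T1 under both conditions. Id4 (ENSMUSG00000021379) had 0 counts in all 3 DMSO libraries and 2, 0 and 0 counts with ponatinib, so it was not tested and no fold is given.

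SMAD6 and SMAD7, the inhibitory SMADs, parted. SMAD6 (ENSG00000137834, chr15:66702236-66782849), whose product mainly restrains BMP receptors, gave 4.97, 3.43 and 3.46 CPM with DMSO and 33.4, 31.1 and 30.1 CPM with ponatinib in MDA-MB-231. It rose 7.98-fold, a log2 fold change of 3.0 (SE 0.15, adjusted p = 3.50e-08, edgeR), the highest of the 9 tested members in that line. In 4T1, Smad6 (ENSMUSG00000036867, chr9:63860341-63929793) gave 14.7, 12.3 and 11.7 CPM with DMSO and 34.9, 33.3 and 35.4 CPM with ponatinib, a 2.67-fold rise (log2 fold change 1.42, SE 0.11, adjusted p = 8.19e-08). Neither line's groups overlapped.

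SMAD7 (ENSG00000101665, chr18:48919853-48950965), whose product restrains both TGF-β and BMP receptors, gave 9.34, 10.2 and 12.7 CPM with DMSO and 10.3, 9.98 and 11.4 CPM with ponatinib in MDA-MB-231. The groups overlapped, and the log2 fold change of -0.02 (SE 0.14, adjusted p = 0.912) changed sign with the scaling, being 0.07 with total counts in place of TMM. It was also 0.11 without DMSO replicate 3 and 0.01 without ponatinib replicate 2. In 4T1, Smad7 (ENSMUSG00000025880, chr18:75500374-75529006) gave 105, 114 and 103 CPM with DMSO and 99.3, 89.6 and 94.7 CPM with ponatinib. All ponatinib libraries lay below all DMSO libraries, but the log2 fold change was only -0.18 (SE 0.08, adjusted p = 0.0490). This call was lost by DESeq2 (adjusted p = 0.0519), with total counts (-0.07, adjusted p = 0.460), with both other filters on low counts and without DMSO replicate 2, ponatinib replicate 2 or ponatinib replicate 3.

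SMAD9, a receptor-regulated SMAD that is itself a BMP target, had low counts in both lines. In MDA-MB-231, SMAD9 (ENSG00000120693, chr13:36844831-36920887) had 19, 27 and 23 counts with DMSO and 57, 83 and 58 with ponatinib, or 1.26, 1.75 and 1.45 CPM against 3.59, 5.28 and 3.17 CPM. It rose 2.69-fold (log2 fold change 1.43, SE 0.27, adjusted p = 0.000815). In 4T1, Smad9 (ENSMUSG00000027796, chr3:54662963-54708680) had 5, 2 and 2 counts with DMSO and 64, 51 and 28 with ponatinib. The groups did not overlap. Its log2 fold change of 3.84 (SE 0.47), or 14.3-fold, rests on 9 DMSO counts in all, and was 4.41 without DMSO replicate 1. Smad9 passed the filter on low counts only through its ponatinib libraries, so its value is given with no test.

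BAMBI, a receptor-like protein without a kinase domain that interferes with TGF-β and BMP receptors, rose moderately in MDA-MB-231. BAMBI (ENSG00000095739, chr10:28677510-28682932) gave 18.9, 17.2 and 17.5 CPM with DMSO and 31.8, 31.0 and 29.5 CPM with ponatinib. The groups did not overlap and the rise was 1.72-fold (log2 fold change 0.78, SE 0.10, adjusted p = 3.39e-05). In 4T1, Bambi (ENSMUSG00000024232) had 0 counts in the DMSO libraries and 1, 0 and 0 with ponatinib, so it was not tested.

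BMP4, the only ligand among the members, rose in both lines. In MDA-MB-231, BMP4 (ENSG00000125378, chr14:53949736-53958761) gave 30.1, 34.3 and 31.4 CPM with DMSO and 75.1, 70.5 and 83.0 CPM with ponatinib, a 2.39-fold rise (log2 fold change 1.26, SE 0.09, adjusted p = 8.03e-07). In 4T1, Bmp4 (ENSMUSG00000021835, chr14:46620250-46636745) gave 69.1, 64.6 and 66.4 CPM with DMSO and 128, 135 and 129.7 CPM with ponatinib, a 1.96-fold rise (log2 fold change 0.97, SE 0.07, adjusted p = 4.13e-08). Neither line's groups overlapped. Antisense genes overlap part of the exons of several members. Gm15222, which covers 22.5% of the exon bases of Bmp4, had at most 44 counts in any library. Antisense genes that cover 16.3% of BMP4, 13.7% of Id1, up to 22.8% of Id2 and 11.8% of Id3 were absent from the deposited counts, so their own levels could not be read.

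Counting the members, 8 of the 9 other than ATOH8 rose in MDA-MB-231 and SMAD7 did not pass the test. Of all 14610 genes tested in this line, 27.2% were higher and 26.8% lower with ponatinib at an adjusted p under 0.05. All 3 ponatinib libraries lay above all 3 DMSO libraries for the same 8 genes, against 30.6% of all genes tested. The median log2 fold change of the 9 was 1.53, and that of all genes tested was 0.02.

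In 4T1, 8 of the 10 members passed the filter on low counts, among them Atoh8, which was chosen by its rise, and Smad9, which passed only through its ponatinib libraries. Of the other 6, 4 rose (Id1, Id3, Smad6 and Bmp4), 1 fell (Smad7, with the reservations above) and 1 did not pass the test (Id2), where 29.5% of the 13286 genes tested were higher and 29.4% lower. The ponatinib libraries lay above the DMSO libraries for the same 4 genes, against 32.6% of all genes tested. The median log2 fold change of the 6 was 1.10, and that of all genes tested was -0.00. The members were picked with ATOH8's rise and earlier results of these libraries known, so these counts describe the list and are no test of it.

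**Figure D2:**
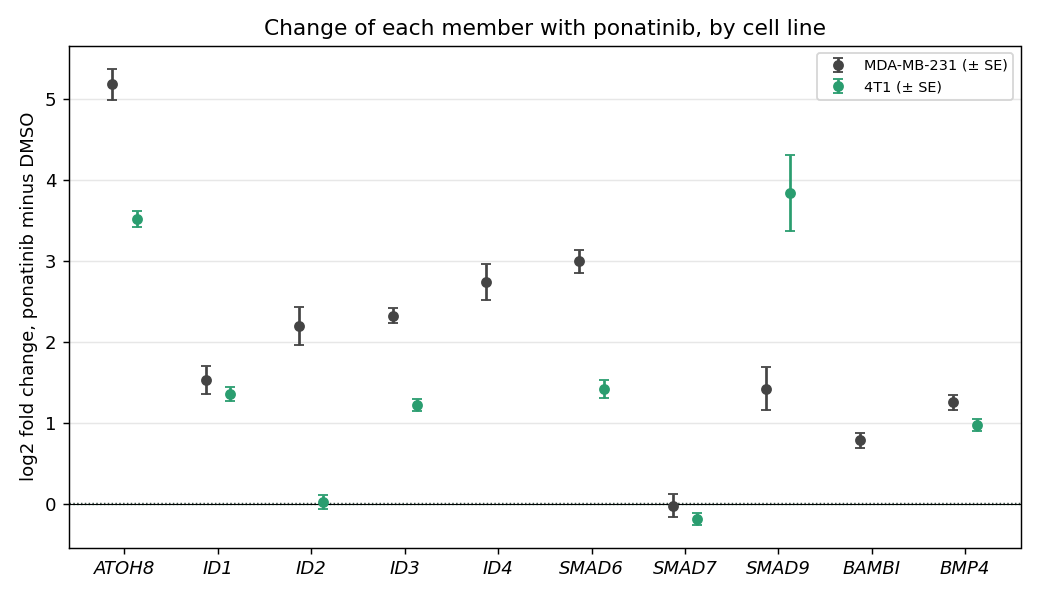
Log2 fold change of each member, ponatinib minus DMSO, in MDA-MB-231 (grey) and 4T1 (green), with bars of 1 SE; dotted lines, close to 0, are the medians of all genes tested in each line. ID4 and BAMBI have no 4T1 point because they were not tested there. ID2, ID3 and SMAD6 lie lower in 4T1, SMAD9 lies higher on few counts, and ATOH8 was chosen by its rise.

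Whether a member changed by different amounts in the 2 lines was asked by the interaction of line and treatment (edgeR, all 12 libraries, genes paired by symbol). The difference passed the threshold for 3 of 6 members, ATOH8 and SMAD9 left aside, a share near the 42.1% of the 12488 paired genes that did. The log2 fold change was smaller in 4T1 by 2.17 for ID2 (-2.17, SE 0.22, adjusted p = 2.95e-07), by 1.58 for SMAD6 (-1.58, SE 0.19, adjusted p = 1.60e-06) and by 1.10 for ID3 (-1.10, SE 0.12, adjusted p = 3.40e-07). For SMAD9 the 4T1 value was larger by 2.41 (SE 0.61), given without a test because the mouse gene passed the filter only through its ponatinib libraries, and by 2.98 without 4T1 DMSO replicate 1.

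ID1 and SMAD7 gave no difference past the threshold. The estimate for ID1 was -0.17 (SE 0.20, adjusted p = 0.546) and turned to 0.07 without MDA-MB-231 ponatinib replicate 1, the library with the highest ID1. The estimate for SMAD7 was -0.16 (SE 0.15, adjusted p = 0.426). BMP4 fell just short at -0.28 (SE 0.12, adjusted p = 0.0567), and it passed with the replicate block (-0.28, adjusted p = 0.0173), by DESeq2 (adjusted p = 0.0437), with at least 10 counts in every library (adjusted p = 0.0440), without MDA-MB-231 DMSO replicate 2 (adjusted p = 0.0437) and without MDA-MB-231 ponatinib replicate 2 (adjusted p = 0.0400). For ATOH8 the difference was -1.67 (SE 0.23), given without a test. ID4 and BAMBI were not compared, since each had at most 2 counts in any 4T1 library.

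Levels of different genes were compared only after dividing by exon length, as CPM per kb of exon (mean ± SD, n = 3). With DMSO, the order in MDA-MB-231 was led by ID1 at 73.3 ± 7.56 and ID3 at 48.0 ± 4.80, followed by BMP4 at 10.3 ± 0.696, BAMBI at 8.36 ± 0.439 and SMAD7 at 2.72 ± 0.443. The library ranges of these 5 did not overlap their neighbours. The remaining 5, in the order ID2, SMAD6, ID4, SMAD9 and ATOH8, lay between 0.573 and 0.211, and each overlapped the next. ATOH8 thus had the lowest mean of the 10 in this line with DMSO, at 0.211 ± 0.0405, but its place relative to SMAD9 is not resolved.

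With ponatinib, ATOH8 moved from the lowest mean to the 5th place in MDA-MB-231, at 7.70 ± 1.59 CPM per kb, below BAMBI at 14.4 ± 0.541 and above SMAD6 at 3.68 ± 0.198 without overlap. ID3 at 240.4 ± 10.2 and ID1 at 212 ± 61.2 led and overlapped each other, so their order under ponatinib is not resolved. SMAD7, ID2 and ID4 overlapped in turn between 2.68 and 2.39 CPM per kb, and SMAD9 was lowest at 0.674 ± 0.187.

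The order in 4T1 with DMSO was Id1 at 53.5 ± 6.15, Id3 at 46.1 ± 2.08, Smad7 at 22.6 ± 1.29, Id2 at 13.7 ± 1.20 and Bmp4 at 12.7 ± 0.430 CPM per kb. Only Id2 and Bmp4 overlapped among the 8 members with counts. Smad6 at 3.65 ± 0.446, Atoh8 at 2.98 ± 0.228 and Smad9 at 0.0288 ± 0.0171 followed. With ponatinib, Atoh8 moved from the 7th to the 3rd place at 34.2 ± 1.48 CPM per kb, between Id3 at 107 ± 5.52 and Bmp4 at 25.0 ± 0.734.

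**Figure D3:**
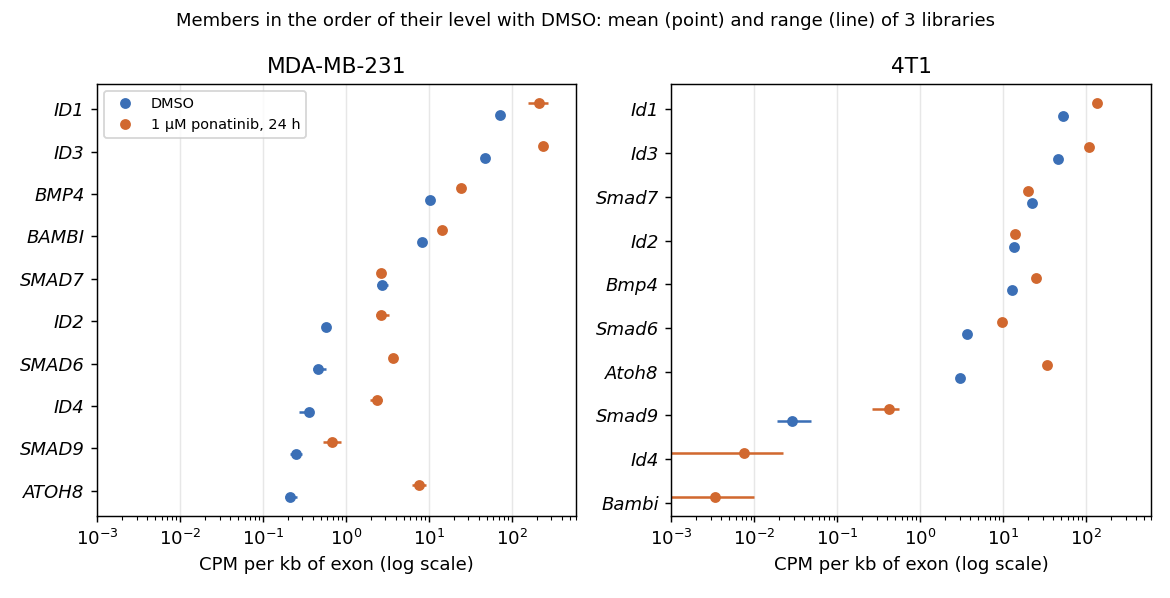
Level of each member in CPM per kb of exon on a log scale, in the order of its DMSO level, with MDA-MB-231 on the left and 4T1 on the right; points are means and lines the range of 3 libraries (DMSO blue, ponatinib orange). Lines that reach the left edge run to 0, and Id4 and Bambi have no DMSO point in 4T1 because all libraries were at 0. ATOH8 has the lowest mean with DMSO, 0.211 CPM per kb, in MDA-MB-231, with a range that overlaps SMAD9, and its mean moves past 5 members with ponatinib.

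The likeness of other genes to ATOH8 was described by Pearson's r of log2(CPM + 0.5), centred within each line, over all 12 libraries and 9219 genes with a mean of at least 5 CPM. The 5 most alike were HPS1 (r = 0.994), NR1H3 (r = 0.994), ITGB4 (r = 0.994), ABHD4 (r = 0.994) and FAM149A (r = 0.993). The difference between ponatinib and DMSO dominates this measure, and 244 genes had r above 0.95, so r reflects mainly that difference. All 5 named genes were higher with ponatinib in both lines, with log2 fold changes from 0.82 for ABHD4 in 4T1 to 2.0 for ITGB4 in MDA-MB-231. Among the members, BMP4 was the most alike (r = 0.989, rank 14), then ID3 (r = 0.986, rank 25), SMAD6 (r = 0.977, rank 63) and ID1 (r = 0.969, rank 109). ID2 had r = 0.808 and SMAD7 r = -0.345.

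The rest of the pathway was read from 5 lists of 60 genes in all. In MDA-MB-231, 34 of the 60 were tested, of which 6 were higher, 11 lower and 17 not past the threshold, with a median change of -0.00 on the log2 scale, where 27.2% of all genes tested were higher and 26.8% lower. In 4T1, 28 were tested, of which 6 were higher, 13 lower and 9 not past the threshold, with a median of -0.26, where 29.5% of all genes tested were higher and 29.4% lower. These shares are the background for each list below. Unlike the member counts, the pathway counts keep genes that passed the filter on low counts only through the group where they were higher. Among them were SOST and BMP2 in MDA-MB-231 and Bmp2, Acvrl1, Fst and Gata2 in 4T1. Values of these genes are given below with no test, and the list counts that hold them are descriptions. The count of higher genes fell from 6 to 3 by DESeq2 in both lines, and in MDA-MB-231 also without DMSO replicate 3 or without ponatinib replicate 2.

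Of the 12 other ligands, few were expressed. In MDA-MB-231, 3 passed the filter: BMP8B gave 3.86 CPM with DMSO and 5.66 with ponatinib (log2 fold change 0.55, adjusted p = 0.0205), BMP6 gave 1.54 and 0.752 (-1.04, adjusted p = 0.0440), and BMP2, named after its value was seen, gave 0.948 and 0.270 (-1.74). The calls of BMP8B and BMP6 were lost by DESeq2 (adjusted p = 0.0893 and 0.113). BMP2 passed the filter only through its DMSO libraries, so its value is given with no test. The BMP2 value was -2.52 without ponatinib replicate 3. BMP6 was -0.58 (adjusted p = 0.263) without DMSO replicate 3 and also lost its call without ponatinib replicate 2 or 3 and with total counts, and BMP8B lost its call without DMSO replicate 3 or ponatinib replicate 2.

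In 4T1 the ligand picture differed by gene. Bmp2 had 6, 7 and 6 counts with DMSO and 99, 105 and 92 with ponatinib, and its log2 fold change was 3.85 (SE 0.27). It passed the filter only through its ponatinib libraries, so this value is given with no test. Bmp6 gave 1.98 CPM with DMSO and 0.975 with ponatinib (-1.02, adjusted p = 0.00736). So BMP6 and Bmp6 were lower in both lines, whereas BMP2 was lower in MDA-MB-231 and Bmp2 higher in 4T1, a difference that was not tested between the lines here.

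**Figure D4:**
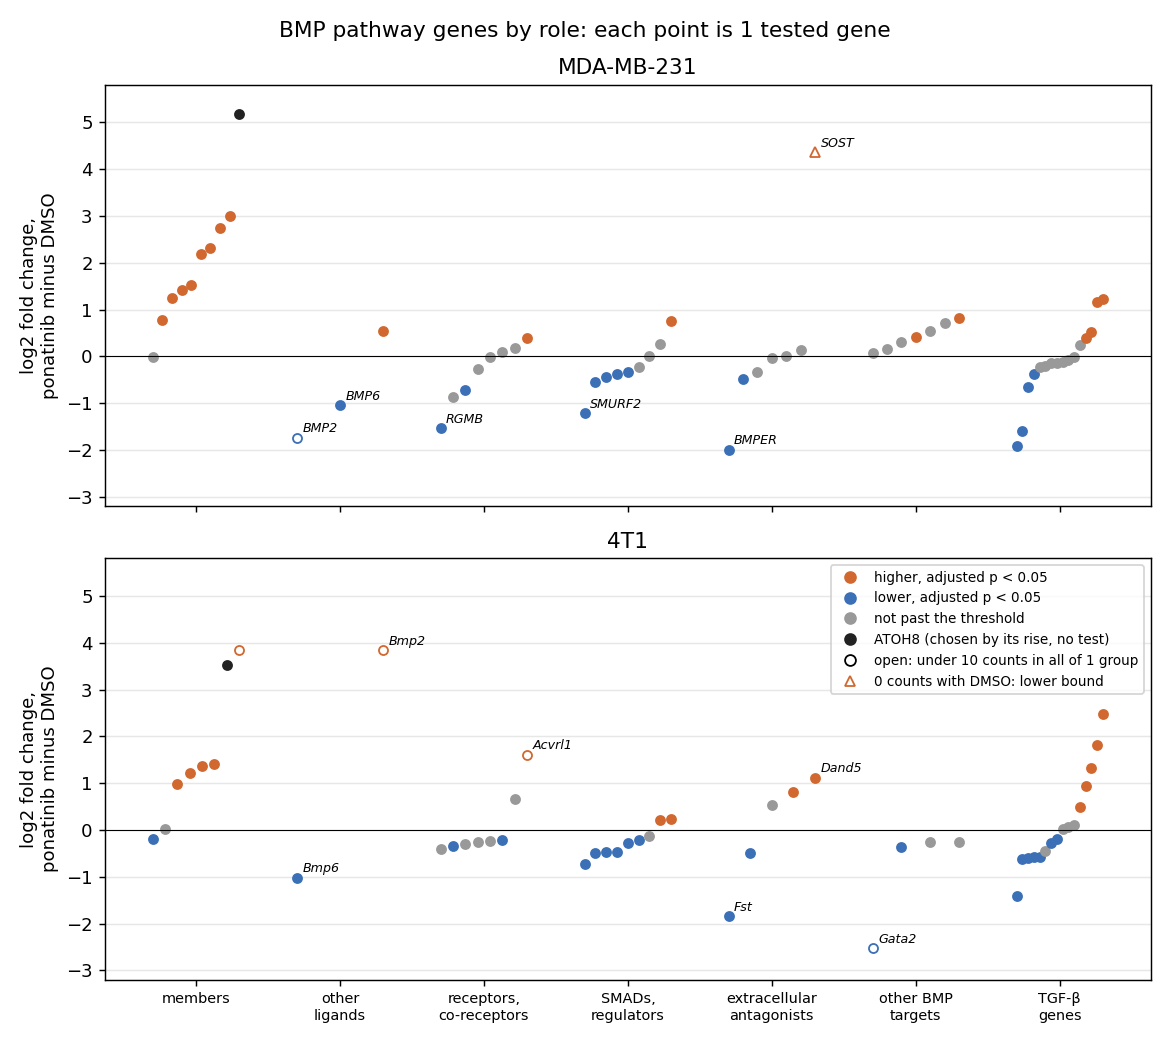
Log2 fold change of each tested gene, ponatinib minus DMSO, for the members and the other pathway lists by role, with MDA-MB-231 above and 4T1 below; orange and blue points passed an adjusted p under 0.05, grey points did not, the black points are ATOH8, open symbols had under 10 counts in every library of 1 group and the triangle is a lower bound. Most points of the other BMP lists lie near or below 0, with medians of -0.00 and -0.26 over the 5 lists. The members' medians are 1.53 in MDA-MB-231 without ATOH8 and 1.10 in 4T1 without Atoh8 and Smad9. The members and lists were chosen with earlier results of these libraries known, so this contrast is a description and no test.

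Of 8 receptors and co-receptors tested in MDA-MB-231, 1 was higher and 2 lower, where 27.2% and 26.8% of all genes tested were: BMPR2, the type II BMP receptor, gave 0.39 (adjusted p = 0.0469), and the co-receptors RGMB and ENG gave -1.53 (adjusted p = 5.13e-08) and -0.72 (adjusted p = 5.93e-05). The call of BMPR2 was lost by DESeq2 (adjusted p = 0.0702) and when DMSO replicate 1 or 3 or ponatinib replicate 2 or 3 was left out. The type I receptors BMPR1A (0.09, adjusted p = 0.609), ACVR1 (-0.01, adjusted p = 0.941) and BMPR1B (-0.86, adjusted p = 0.137) and the type II receptors ACVR2A (0.19, adjusted p = 0.340) and ACVR2B (-0.27, adjusted p = 0.313) did not pass the test, and the sign of BMPR1A and ACVR1 changed with the setting. BMPR1B gave -1.31 (adjusted p = 0.0491) without ponatinib replicate 1.

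In 4T1, 1 of 8 receptors and co-receptors was higher and 2 lower, where 29.5% and 29.4% of all genes were. The type I receptors Bmpr1a (-0.34, adjusted p = 0.00593) and Acvr1 (-0.21, adjusted p = 0.0215) were lower, and both calls were lost with total counts (-0.22 and -0.09, adjusted p = 0.0582 and 0.280). Acvr1 also lost its call without DMSO replicate 2, ponatinib replicate 2 or ponatinib replicate 3. Acvrl1, an endothelial type I receptor, was the 1 counted as higher, at 1.61 on 3, 5 and 5 counts with DMSO and 18, 12 and 13 with ponatinib. Its call was lost by DESeq2. It passed the filter only through its ponatinib libraries, so its value is given with no test. The type II receptors Bmpr2 (-0.23, adjusted p = 0.0775), Acvr2a (-0.25, adjusted p = 0.0888) and Acvr2b (-0.41, adjusted p = 0.138) did not pass. Bmpr2 and Acvr2a passed with the replicate block (adjusted p = 0.00672 and 0.0136) and without DMSO replicate 1 (adjusted p = 0.0278 and 0.0154). Bmpr2 and Acvr2b passed without ponatinib replicate 1 (adjusted p = 0.0435 and 0.0422), Acvr2a without ponatinib replicate 2 (adjusted p = 0.0391), and Bmpr2 with no filter on low counts (adjusted p = 0.0348).

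SMAD1, SMAD4 and SMAD5, which carry the signal to the nucleus, showed small changes. In MDA-MB-231, SMAD5 fell (-0.55, SE 0.11, adjusted p = 0.00101), while SMAD1 (0.27, adjusted p = 0.470) and SMAD4 (0.01, adjusted p = 0.947) did not pass the test. In 4T1, Smad1 fell (-0.48, SE 0.08, adjusted p = 0.000179), Smad4 fell (-0.46, SE 0.08, adjusted p = 0.000118) and Smad5 was slightly higher (0.23, SE 0.08, adjusted p = 0.0278). The Smad5 call was lost by DESeq2 (adjusted p = 0.0514) and without DMSO replicate 1 or 2 or ponatinib replicate 1 or 2.

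The list of SMADs and regulators had 9 tested genes in each line. Ponatinib raised 1 and lowered 5 of them in MDA-MB-231, whereas 4T1 had 2 higher and 6 lower. The background shares of lower genes were 26.8% for MDA-MB-231 and 29.4% for 4T1, against 27.2% and 29.5% for higher genes. SMURF2, a ubiquitin ligase that targets SMADs and receptors, fell in MDA-MB-231 (-1.22, SE 0.10, adjusted p = 1.91e-06), as did the SMAD co-repressor SKI (-0.45, adjusted p = 0.00128). TOB1, an antiproliferative protein that binds BMP SMADs, rose there (0.76, adjusted p = 0.000828), while Tob1 fell in 4T1 (-0.50, adjusted p = 5.40e-05). Lemd3, an inner nuclear membrane protein that binds SMADs, fell in 4T1 (-0.73, adjusted p = 0.000106).

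Among 15 extracellular antagonists, 7 were tested in MDA-MB-231, with 1 higher and 2 lower. SOST, the gene of sclerostin, had 0 counts in the 3 DMSO libraries and 27, 27 and 12 with ponatinib, and was at least 20.5-fold higher (against a floor of 3 counts over the group). It passed the filter on low counts only through its ponatinib libraries. BMPER, which encodes a secreted BMP-binding protein, fell (-1.99, SE 0.16, adjusted p = 1.54e-06), and NOG, the gene of noggin, fell (-0.47, adjusted p = 0.00231). In 4T1, 5 antagonists were tested, with 2 higher and 2 lower: Dand5 (1.11, adjusted p = 4.80e-05) and Bmper (0.82, adjusted p = 0.000102) rose, and Fst, the gene of follistatin (-1.84), and Twsg1 (-0.50, adjusted p = 0.000139) were lower. Fst had 40, 41 and 27 counts with DMSO and 12, 15 and 5 with ponatinib. It passed the filter only through its DMSO libraries, so its value is given with no test. BMPER fell in MDA-MB-231 and Bmper rose in 4T1, and the difference between the lines was not tested here.

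Other BMP target genes were listed apart from the members. Of 7 tested in MDA-MB-231, 2 were higher, a share near the 27.2% of all genes, and 5 did not pass the test: HEY1, a transcriptional repressor, gave 0.82 (adjusted p = 0.0178) and the osteoblast factor RUNX2 gave 0.41 (adjusted p = 0.00380). The call of HEY1 was lost by DESeq2 (adjusted p = 0.0519) and without DMSO replicate 3 or ponatinib replicate 2. Of 4 tested in 4T1, 2 did not pass and 2 were lower, where 29.4% of all genes tested were lower. Gata2 gave -2.53, from 24, 32 and 27 counts to 3, 9 and 3 (-3.23 without ponatinib replicate 2). It passed the filter only through its DMSO libraries, so its value is given with no test. Runx2 gave -0.37 (adjusted p = 0.00930), a call that was lost with total counts (adjusted p = 0.0637) and without DMSO replicate 2 or ponatinib replicate 3.

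Genes of the sister TGF-β branch, which signals through SMAD2 and SMAD3, moved in both directions. All 16 listed genes were tested. MDA-MB-231 had 4 higher and 4 lower with ponatinib, where 27.2% of all genes tested were higher and 26.8% lower. In 4T1, 5 were higher and 7 lower, where 29.5% and 29.4% of all genes were. CCN2 fell in MDA-MB-231 (-1.60, adjusted p = 1.82e-07), and NEDD9 (1.22, adjusted p = 2.06e-05) and the ligand gene TGFB2 (1.16, adjusted p = 3.44e-06) rose. Ccn2, named after its value was seen, rose in 4T1 (0.48, adjusted p = 0.000763), and the difference between the lines was not tested here. In 4T1, Tgfb2 (1.81, adjusted p = 4.71e-09) and Ltbp2 (1.33, adjusted p = 1.01e-08) rose. Tgfbi, also among the 5 higher, gave 2.48 on 11, 6 and 8 counts with DMSO and 51, 59 and 40 with ponatinib. It passed the filter only through its ponatinib libraries, so its value is given with no test. Among the 7 lower, named after their values were seen, were Tgfbr1 (-0.62, adjusted p = 0.000292), Smad3 (-0.59, adjusted p = 3.74e-05) and Skil (-0.58, adjusted p = 9.09e-05).

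Helix-loop-helix partners of the ID proteins and relatives of ATOH8 were read as a further list. In MDA-MB-231, 1 of 5 tested passed the test, HES1, a repressor and Notch target, which fell (-1.55, SE 0.11, adjusted p = 4.22e-07). In 4T1, Tcf3 rose (0.45, adjusted p = 0.000200) and Tcf12 fell (-0.34, adjusted p = 0.000837) among 4 tested. ATOH1 and ATOH7, relatives of ATOH8, had at most 16 counts in any MDA-MB-231 library and 0 in all 4T1 libraries.

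Total counts lay between 15012884 and 17301760 per MDA-MB-231 library and between 17800675 and 18951493 per 4T1 library. The labelled epithelial type was checked on 5 markers: KRT8, KRT18 and KRT19 were abundant in both lines, whereas CDH1 had at most 1 count in any MDA-MB-231 library and Cdh1 14251 to 18963 counts in 4T1. EPCAM was far below the keratins in MDA-MB-231, at a mean of 6.44 CPM with DMSO and 8.55 with ponatinib (0.41, adjusted p = 0.0328). PTPRC and CD3E had at most 4 counts in any library of either line. The fibroblast markers summed to 25.7 to 31.3 CPM with DMSO and 72.9 to 77.0 with ponatinib in MDA-MB-231, and to 5.94 to 6.88 and 9.55 to 10.2 CPM in 4T1. That increase came with COL1A1 (1.43 and 1.26 on the log2 scale), while LUM and DCN had at most 1 count in any library and Pdgfra fell in 4T1 (-0.88, adjusted p = 0.0173, from 37, 43 and 75 counts to 25, 32 and 32). The epithelial list summed to 1621 to 1989 CPM with DMSO and 2236 to 2795 with ponatinib in MDA-MB-231, carried by KRT8 (0.88), and overlapped between the groups in 4T1. The mesenchymal list fell from 1340.5 to 1527 CPM to 945 to 1122 CPM in MDA-MB-231, with VIM at -0.66 but FN1 at 0.75, and from 6423 to 7364 CPM to 4397 to 4819 CPM in 4T1, with Fn1 at -1.82. The immune list fell in 4T1 from 223 to 249 CPM to 137 to 155 CPM, carried by Cd14 (2660 to 4548 counts), and the endothelial list from 2.89 to 5.03 CPM to 0.867 to 1.45 CPM, carried by Kdr. The part of these 5 lists in the members' changes was not tested. Using total counts rather than TMM raised the all-gene median log2 fold change to 0.11 for MDA-MB-231, where it gave 4641 higher and 3097 lower calls, and to 0.12 for 4T1, where it gave 4854 and 2935.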

How the data were processed

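RNA-seq of ponatinib-treated and DMSO-treated MDA-MB-231 and 4T1 cells was analysed, with 3 libraries per group. According to their methods, the authors trimmed the reads, used HISAT2 to align them to the hg38 or GRCm39 genome and used HTSeq for counting; versions, annotation and strand setting are not given in the sources used here. The deposited files hold unnormalized counts for each gene. Gene names and coordinates were taken from GENCODE, which matched 81.9% of human identifiers, holding 99.3% of counts, and 91.1% of mouse identifiers, holding 99.8%. The members, lists and promoter motifs were chosen with earlier results of these data known.

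Each line was fitted apart with edgeR 4.0.16 in R 4.3.3 (filterByExpr, TMM, quasi-likelihood test, Benjamini-Hochberg over all genes tested), and the difference between the lines as the interaction of line and treatment over genes of the same symbol. A call is an adjusted p under 0.05. DESeq2 1.42.0, which the authors used, other scalings and filters, the replicate number as a block and each library left out in turn were alternatives. CPM were computed here from TMM-scaled totals. Genes were named by a rule: all members, up to 4 called genes per list and line with the largest change and at least 1 CPM, tested SMAD1, SMAD4, SMAD5 and BMP receptors, and the 5 genes most correlated with ATOH8; some genes this rule or the lists hold are not reported here. The steps were tested on simulated data.

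Replicates of a group were not copies of each other (chi-square per gene 2.93 to 16.5). Same-numbered ponatinib and DMSO libraries deviated together (r of 0.498, 0.175 and 0.218 for the MDA-MB-231 pairs, r of 0.278, 0.185 and 0.153 for the 4T1 pairs). Libraries with different numbers gave -0.401 to 0.274 and -0.332 to 0.219, and DMSO replicate 2 of MDA-MB-231 and DMSO replicate 3 of 4T1 correlated better with another number than with their own. Neither the labels nor the methods say what a number marks. All values are from fits without the block unless it is named. The floor used for SOST covers counting error only, whereas each SE and SD holds the spread between libraries.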

Additional observations from a re-analysis of the deposited data

Results flagged for a closer look

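The change with ponatinib differed between the lines for ID2, ID3 and SMAD6, by the interaction of line and treatment (edgeR's quasi-likelihood test, Benjamini-Hochberg over 12488 genes). Of all these genes, 42.1% differed, so a count of 3 among 6 members lies near the background. Subtracting the MDA-MB-231 log2 fold change from the 4T1 value gave -2.17 for ID2, -1.10 for ID3 and -1.58 for SMAD6, all higher in every ponatinib library of MDA-MB-231, with no overlap of the groups in 4T1 for ID3 and SMAD6 and overlap for ID2. The same subtraction gave 2.41 for SMAD9, which also passed the threshold, but its 4T1 value rests on 9 DMSO counts and the mouse gene passed the filter only through its ponatinib libraries, so the value is a description. The calls of ID2, ID3 and SMAD6 were kept under each alternative that could be fitted.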

How the results depend on the processing

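Over 103 results and 1272 alternative values, 1175 kept their direction and their side of the threshold or stayed near in count, 60 lost a call, 14 gained one, 19 changed direction and 4 counts moved. The 8 members called higher in MDA-MB-231 were 8 under every alternative. In 4T1, with Atoh8 and Smad9 left aside, Id1, Id3, Smad6 and Bmp4 stayed higher under all 12 alternatives. Smad7 lost its call under 7 of them, and Id2 was called under none. Of the other pathway genes called and followed, 18 of 25 in MDA-MB-231 and 22 of 33 in 4T1 kept their call under every alternative that tested them. These counts keep genes that passed the filter on low counts only through 1 group. SOST, given as a bound, was called but not followed. Directions changed for values near 0. SMAD7 in MDA-MB-231 was 0.0712 with total counts and 0.0072 with at least 10 counts in every library, and -0.12 to 0.11 over the 6 libraries left out. ACVR1 there was 0.0799 and 0.015 with those settings and -0.10 to 0.12 with libraries left out, and SMAD4 was -0.010 by DESeq2, -0.019 with no filter and -0.0372 to 0.0405. BMPR1A ranged from -0.0164 to 0.20 and SMAD1 from -0.0117 to 0.50 with libraries left out. Id2 in 4T1 ranged from -0.0406 to 0.0814, and the line difference of ID1 from -0.35 to 0.0723. The counts of pathway genes called higher moved from 6 to 3 by DESeq2 in both lines and ranged from 3 to 7 with libraries left out in MDA-MB-231. With the replicate number as a block, 8 members were called in MDA-MB-231, and the calls of the 6 members counted in 4T1 did not change. The block gave 18 and 23 other pathway genes called in the 2 lines, and it added BMP4 (-0.28) to the line differences. Calls over all genes rose too, from 3975 higher and 3918 lower to 4802 and 4873 of 14610 in MDA-MB-231. In 4T1 they rose from 3925 and 3909 to 4310 and 4310 of 13286. The share of all paired genes that differed between the lines was not computed with the block. The block changed the calls of BMP4, Bmpr2 and Acvr2a, and of no other result followed. DESeq2's size factors were not run for the line difference, and Smad9 could not be followed at a minimum of 10 counts in 4T1. The cause of these changes was not tested. Depth limits Id4 and Bambi in 4T1 and the fold of Smad9 there.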
